A study of Mus musculus with 6 samples.

Results

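The genes described here encode the heat shock proteins and chaperonins of the mouse hippocampus, and their transcripts were compared between the aging (22M) and the young (3M) hippocampus. Members were chosen by a rule on gene names: the names that begin with Hsp90, Hspa, Hspb, Hspd, Hspe, Hsph or Dnaj, without the binding proteins Hspbap1 and Hspbp1, and the subunits of the CCT chaperonin. These names gave 69 genes, represented by 149 transcripts, of the 13321 genes in the deposited table. Of the 8 CCT subunits, 7 were found, and Cct6a was not analysed here. Hippocampal mRNA was sequenced in 6 libraries of wild-type male C57BL/6 mice, 3 at 22 months (libraries 72, 76 and 78) and 3 at 3 months (libraries J11, J13 and J15), and by the labels the groups differ in age alone. The values are FPKM, in which fragments are divided by the length of the transcript and by the library's mapped fragments, and those of a gene's transcripts were summed. This allows only a rough comparison of levels between genes, because differences between the ages still ran with transcript length, as given below. Whether each library came from its own mouse is not stated, so the p-values below speak of the spread among these 6 libraries.

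Molecular chaperones help other proteins to fold, keep unfolded chains from clumping and pass those that cannot be rescued to degradation. HSP70 proteins bind exposed stretches of unfolded chains in cycles of ATP use. DNAJ proteins start the cycle, exchange factors such as the HSP110 proteins end it, and HSP90 proteins act on clients that are nearly folded. Chaperonins, CCT in the cytosol and HSPD1 with HSPE1 in mitochondria, enclose a chain in a barrel, while small heat shock proteins hold unfolded chains without using ATP. In neurons, most of which are not replaced, chaperones also serve the release of transmitter and the recycling of synaptic vesicles. Many of these genes are induced through heat shock elements, to which the factor HSF1 binds, and those of the endoplasmic reticulum (ER) through ER stress elements.

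These elements were searched in the promoters, and some stretches that hold them are shown. Not every inducible or ER member held its element. The inducible Dnajb1 had no match to a heat shock element, and Dnajb9, of the ER, had no match to an ER stress element. A match is a description of the sequence, and no binding was measured. Windows from base -250 to base 50 around a start site, credited to RefSeq on GRCm38.p6, were matched for 56 members by symbol. The heat shock element of 3 units, GAANNTTCNNGAA on either strand, was found in 4 of these members (7.14%), against 0.662% of 27025 genes. They were Hspe1 and Hspd1, which lie head to head and share the element, Hsph1 and Dnajb6. The element of 2 units, GAANNTTC or TTCNNGAA, which also lies within every element of 3 units, was found in 16 members (28.6%), against 17% of genes. The ER stress element, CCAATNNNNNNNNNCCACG on either strand, was found in 3 members (5.36%), against 0.137% of genes. Windows of 13 members were not used here: Cct4, Dnajc2, Dnajc5, Dnajc11, Dnajc12, Dnajc18, Dnajc30, Hsp90aa1, Hsp90ab1, Hspa8, Hspa9, Hspa13 and Hspb2. The stretches are written 5′ to 3′ on the strand of the gene, and capitals mark the matches. That of Hspe1 lies at chr1:55088053-55088082 (plus strand, within the annotated first exon of 1 Hspd1 transcript) and holds 2 overlapping elements of 3 units, and that of Hsph1 lies at chr5:149636280-149636308 (minus strand, first exon).
Hspe1: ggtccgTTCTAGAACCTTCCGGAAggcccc
Hsph1: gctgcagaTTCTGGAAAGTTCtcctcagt
The inducible HSP70 genes Hspa1a (chr17:34972233-34972280, minus strand) and Hspa1b (chr17:34959315-34959362, minus strand) hold the element of 2 units in an identical stretch.
Hspa1a: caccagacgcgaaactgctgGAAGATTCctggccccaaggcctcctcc
Hspa1b: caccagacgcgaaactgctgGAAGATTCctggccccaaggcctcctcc
The members with an ER stress element encode ER chaperones: Hspa5 (chr2:34772020-34772048, plus strand, within the annotated first exon of 1 transcript), Dnajc3 (chr14:118937807-118937865, plus strand) and Hsp90b1 (chr10:86705513-86705676, minus strand), which holds 2 elements, the second on the other strand.
Hspa5: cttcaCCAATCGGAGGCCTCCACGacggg
Dnajc3: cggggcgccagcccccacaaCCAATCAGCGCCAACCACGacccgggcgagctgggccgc
Hsp90b1: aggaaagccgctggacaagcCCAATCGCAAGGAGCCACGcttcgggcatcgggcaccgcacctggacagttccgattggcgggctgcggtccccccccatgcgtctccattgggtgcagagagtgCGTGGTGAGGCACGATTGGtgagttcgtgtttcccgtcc

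The FPKM of all transcripts summed to 318024 to 349911 in the 22M libraries and to 344404 to 358073 in the 3M libraries, and the depth is unknown because FPKM hold no counts. All 6 neuron markers and all 8 markers of hippocampal principal neurons were present. Library J11 stood apart by striatal markers, whose 5 genes summed to 20.4 to 32.2 FPKM in the 22M libraries, and to 494 FPKM in J11 and 27.3 and 29.3 FPKM in the other 3M libraries. Library 78 stood apart by choroid plexus markers, which are given with Hspb6. Myelin markers were lower in 22M (8 of 8 without overlap, summed 754 to 962 FPKM in 22M against 1246 to 1323 FPKM in 3M), and erythroid markers were higher (5 of 5 without overlap, summed 1329 to 2046 FPKM in 22M against 590 to 633 FPKM in 3M). Markers of thalamus and habenula, regions that lie near the hippocampus, were lower in 22M (4 of 7 fell by the limma adjusted p and did not overlap, median log2 fold change -1.95, summed 40.5 to 54.5 FPKM in 22M against 85.3 to 127 FPKM in 3M). The part of these tissue differences in the values of the members was not tested.

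Of the chaperone genes, 2 were lower in 22M by the study's thresholds and 0 passed the adjusted test. All 69 members were among the 13041 genes that averaged 0.5 FPKM or more, which were fitted with limma on log2(FPKM + 0.5), the scale of every fold change given here. At an adjusted p under 0.05 (limma, Benjamini-Hochberg over all genes tested), 0 members rose and 0 fell, where 0.92% of all genes rose and 1.21% fell. At the study's thresholds, a limma p under 0.05 without adjustment together with a fold of more than 1.5 in either direction, 0 members were higher in 22M, against 4.08% of all genes, and 2 were lower (2.9%), against 4.22%. These were Dnajc2 and Dnajc19, both genes of DNAJ proteins. At an unadjusted p under 0.05 alone, 4 members were higher (5.8%, with 10.6% over all genes) and 12 were lower (17.4%, with 16.4% over all genes). With values corrected for length and GC content of the transcripts, 3 members were higher (4.35%, with 6.71% over all genes) and 8 lower (11.6%, with 12% over all genes). Of the calls before the correction, 0 of 4 higher and 5 of 12 lower (Dnajc2, Dnajc7, Dnajc19, Hspa14 and Tcp1) were kept. Called only after it were Dnaja1, Hspa2 and Hspb2 as higher and Dnajc5, Dnajc10 and Hsph1 as lower. The 2 ages did not overlap in 7 members that were higher in 22M (10.1%, background 13.3%) and in 20 that were lower (29%, background 21.1%). The median log2 fold change of the members was -0.10, with 27 members above 0 and 42 below, and that of all genes tested was -0.05. With limma run without a variance trend, and with a linear model that took the variance of each gene alone, 0 members rose and 0 fell as well (0.176% and 0.107% of all genes without a trend, and 0% with the variance of each gene). Array weights gave 0 members that rose and 3 that fell (4.35%), against 4.26% and 5.67% of all genes. Of the members with a heat shock element of 3 units, Hspe1 was at -0.30, Hspd1 at -0.12, Hsph1 at -0.14 and Dnajb6 at 0.01 on the log2 scale, and of those with an ER stress element, Hspa5 was at 0.46, Dnajc3 at 0.25 and Hsp90b1 at 0.01. In bulk tissue, fewer cells of a type and less RNA per cell cannot be told apart, which holds for every value here.

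**Figure D1:**
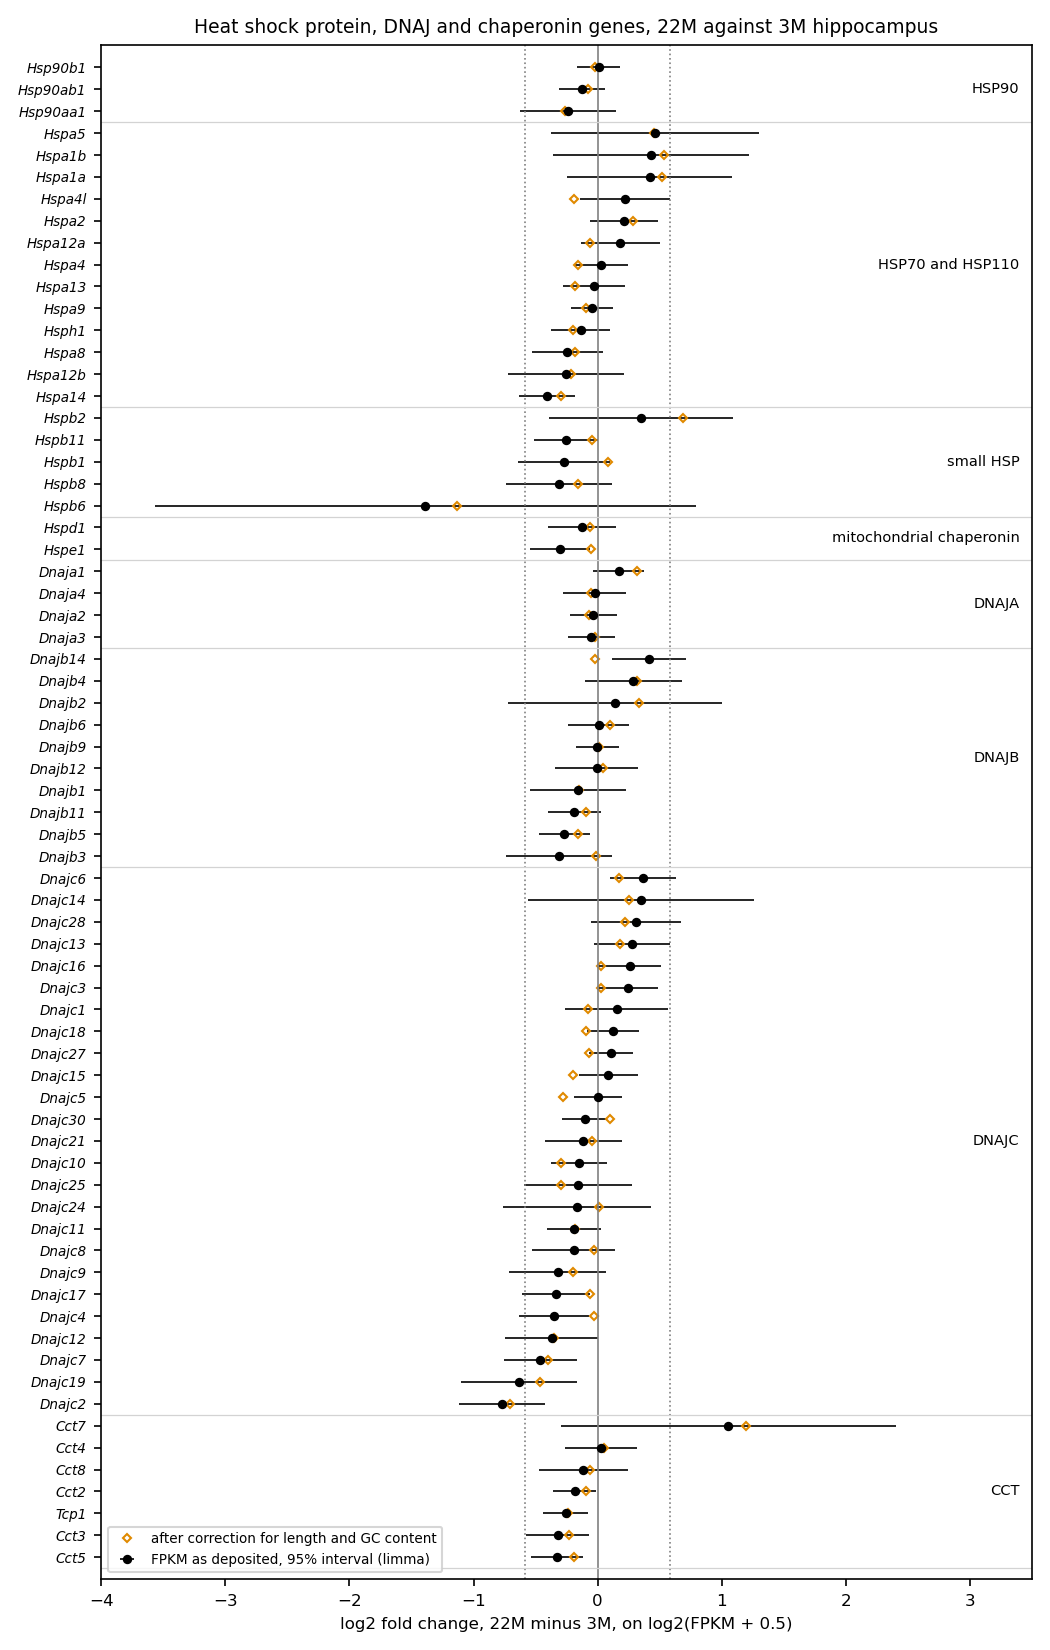
Log2 fold changes of the 69 members, 22M minus 3M, with 95% intervals from limma (black points and bars), and the same after correction for transcript length and GC content (open diamonds), grouped by family; dotted lines mark the study's fold threshold of 1.5 in either direction. Most points lie between the dotted lines, and the points of Dnajc2 (-0.77), Dnajc19 (-0.63), Hspb6 (-1.39) and Cct7 (1.05) lie outside, with intervals that cross 0 for Hspb6 and Cct7.

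The 3 HSP90 genes made up 32.8% to 34.0% of the summed FPKM of all members in the 22M libraries and 33.6% to 35.5% in the 3M libraries. Hsp90ab1, the constitutive cytosolic form, was the member with the highest level, at 551, 544 and 578 FPKM in 22M against 586, 643 and 594 FPKM in 3M. Its 22M libraries all lay below the 3M libraries, but by a small margin (log2 fold change -0.12, 95% interval -0.31 to 0.06, limma adjusted p = 0.345). Hsp90aa1, the stress-inducible cytosolic form, was at 263, 275 and 324 FPKM in 22M against 281, 420 and 325 FPKM in 3M. Here the ages overlapped, and J13 alone was well above the other libraries (log2 fold change -0.24, interval -0.62 to 0.15). Hsp90b1, the form of the ER known as GRP94, was at 109, 101 and 99.7 FPKM in 22M against 106, 102 and 100 FPKM in 3M. These were among the most even values of all members, and the interval of the log2 fold change ran from -0.17 to 0.18 around 0.01.

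The HSP70 and HSP110 genes had a median log2 fold change of 0.03 over 13 members, which lay between -0.41 for Hspa14 and 0.46 for Hspa5. Hspa8, the constitutive cytosolic HSP70 that also strips clathrin from vesicles, was at 313, 314 and 314 FPKM in 22M against 317, 436 and 370 FPKM in 3M. The 22M libraries were nearly alike and lay just below J11, the lowest 3M library, while J13 and J15 were higher (log2 fold change -0.24, interval -0.53 to 0.05, limma adjusted p = 0.247). Hspa9, the mitochondrial HSP70, was at 56.6, 55.5 and 60.2 FPKM in 22M against 60.6, 58.4 and 58.8 FPKM in 3M. Hspa4, an HSP110 protein that exchanges the nucleotide of HSP70, was at 35.6, 35.4 and 41.7 FPKM in 22M against 35.9, 36.8 and 37.5 FPKM in 3M. Both of these genes overlapped between the ages, with log2 fold changes of -0.05 (interval -0.21 to 0.12) and 0.03 (interval -0.19 to 0.24). Hsph1, the inducible HSP110, was at 48.2, 50.01 and 57.7 FPKM in 22M against 54.3, 55.0 and 62.1 FPKM in 3M, and the highest 22M library, 78, lay within the 3M range. Its log2 fold change was -0.14 (interval -0.38 to 0.10), or -0.20 after correction for length and GC content (limma unadjusted p = 0.04997).

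The inducible cytosolic HSP70 is encoded by Hspa1a and Hspa1b, whose coding sequences are identical at 1915 of 1926 positions (99.4%), so reads could be shared between them and the value of each copy is uncertain. Hspa1a was at 6.34, 7.80 and 12.4 FPKM in 22M against 4.61, 6.88 and 7.64 FPKM in 3M. Hspa1b was at 6.48, 8.35 and 15.4 FPKM in 22M against 5.14, 7.17 and 8.78 FPKM in 3M. In both, library 78 was the highest of all and J11 the lowest, and the other 4 libraries lay close together. The log2 fold changes were 0.42 (interval -0.25 to 1.08) and 0.43 (interval -0.36 to 1.22). Without J11 and 78 they were -0.04 and -0.10. Leaving out the lowest 3M and the highest 22M library must lower the difference, so this does not show by itself what the higher means of 22M rested on. Dnajb1, an inducible DNAJ partner of these proteins, had 78 as its highest library too, at 13.9, 14.7 and 20.7 FPKM in 22M against 18.6, 19.3 and 16.5 FPKM in 3M, and its log2 fold change was -0.16 (interval -0.55 to 0.23).

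Hspa5, the HSP70 of the ER known as BiP, differed between its highest and lowest library by a ratio of 2.48, at 31.7, 59.2 and 61.6 FPKM in 22M against 24.9, 54.2 and 32.4 FPKM in 3M. Each age held high and low libraries: 76, 78 and J13 were high and 72, J11 and J15 low (log2 fold change 0.46, interval -0.38 to 1.30). Hspa14, which joins Dnajc2 in the complex that receives new chains at the ribosome, was at 10.3, 11.1 and 10.6 FPKM in 22M against 15.2, 14.6 and 13.2 FPKM in 3M. Its 22M libraries lay close together and below all 3M libraries, and the log2 fold change was -0.41 (SE 0.0951, limma adjusted p = 0.0668, lower in 3 of 3 libraries). It passed the adjusted p only in the alternative with array weights (adjusted p = 0.0451). The remaining members, Hspa2, Hspa4l, Hspa12a, Hspa12b and Hspa13, overlapped between the ages, with log2 fold changes of -0.26 to 0.22.

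**Figure D2:**
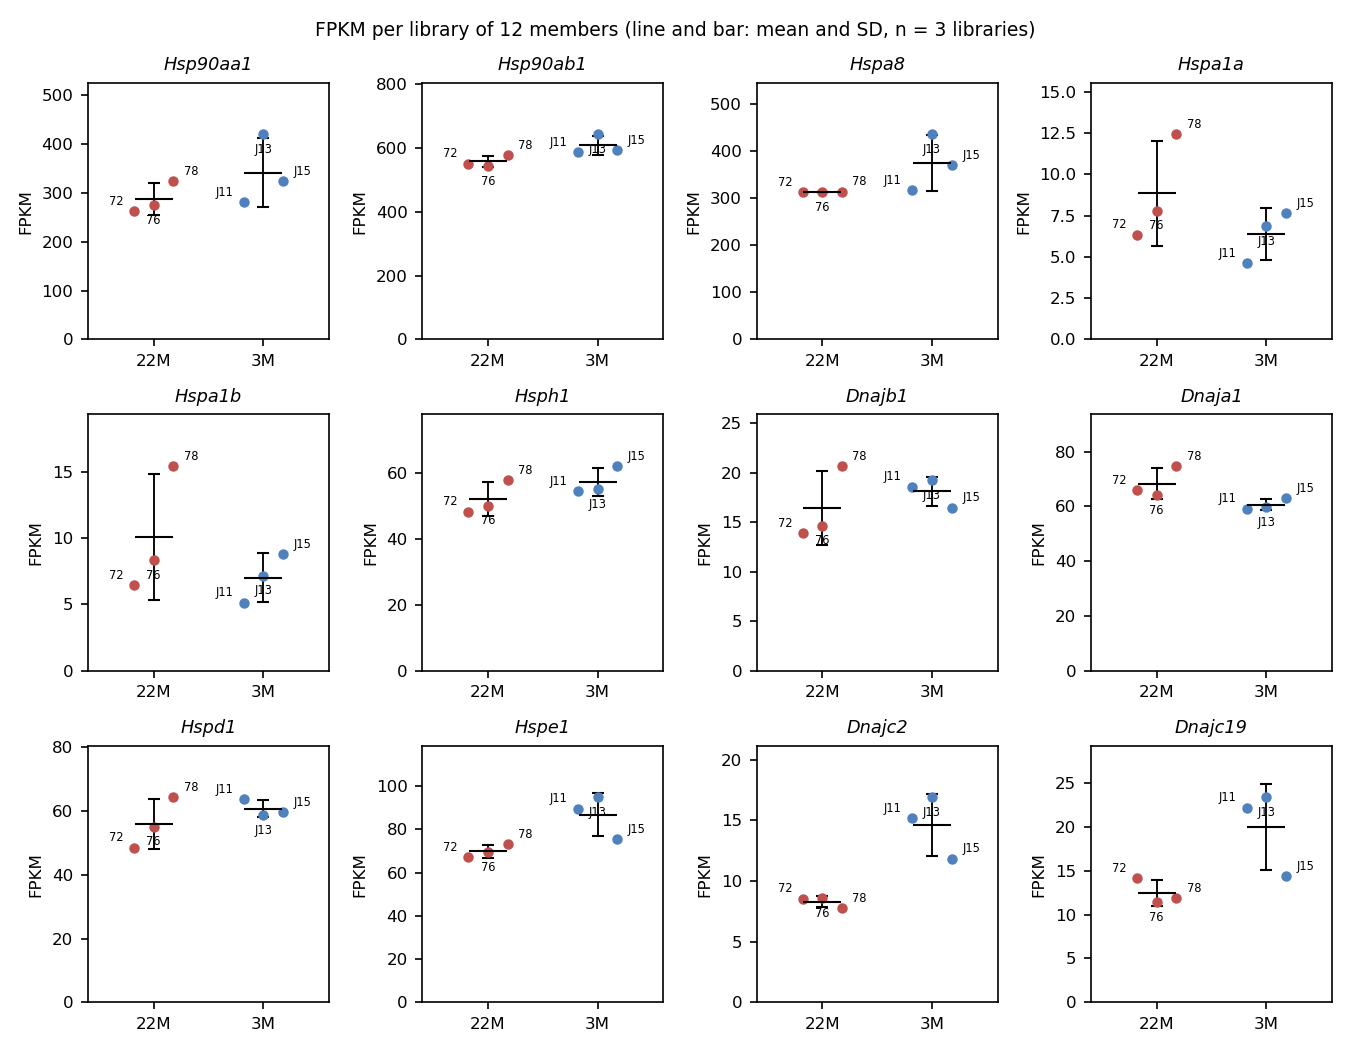
FPKM of 12 members in each library, 22M (red) left of 3M (blue), with the library names, the mean (line) and the SD (bar, n = 3 libraries); each axis starts at 0. For Dnajc2 the 22M libraries (7.75 to 8.60 FPKM) lie below the 3M libraries (11.9 to 16.9 FPKM), while for Hspa1a and Hspa1b library 78 alone stands above the rest.

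Among the small heat shock proteins, 5 members were measured, with a median log2 fold change of -0.27. Hspb1, which encodes HSP27, was at 8.98, 11.5 and 8.65 FPKM in 22M against 13.7, 11.6 and 10.3 FPKM in 3M, where 76 lay within the 3M range. Hspb11, a part of the transport machinery of cilia, was at 17.1, 13.6 and 14.3 FPKM in 22M against 17.5, 18.4 and 18.01 FPKM in 3M. The ages did not overlap in this gene, although 72 came close to J11 (log2 fold change -0.26, interval -0.51 to 0.00, limma adjusted p = 0.187, or -0.04 after correction for length and GC content). Hspb8, which acts with the cochaperone BAG3, had a log2 fold change of -0.31 and overlapped. Hspb2, the member with the lowest mean, was at 1.42, 0.743 and 0.371 FPKM in 22M against 0.637, 0.399 and 0.484 FPKM in 3M, with 72 above all other libraries (named, like Hspb6 and Cct7, after its values were seen).

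Hspb6, which encodes HSP20, differed more between the libraries than any other member, with a ratio of 55.0 between the highest and the lowest. It was at 10.4, 3.69 and 0.188 FPKM in 22M against 7.20, 6.97 and 9.25 FPKM in 3M. The summed FPKM of 6 choroid plexus markers, the epithelium that secretes cerebrospinal fluid, was 2817, 1158 and 135 in these 22M libraries and 1924, 1624 and 2494 in the 3M libraries. Most of that sum came from Ttr, the transthyretin gene. Hspb6 and the sum gave the same order of all 6 libraries, from 78 at the bottom to 72 at the top. No other member had this order, which 31 of the genes tested shared (0.238%). Without Ttr the markers summed to 148, 60.1 and 12.8 FPKM in 22M against 63.8, 57.4 and 96.2 FPKM in 3M, and 76 and J13 changed places. By limma, 0 of the 6 markers rose or fell, and 0 passed an unadjusted p of 0.05. The log2 fold change of Hspb6 was -1.39 (interval -3.57 to 0.79, limma adjusted p = 0.367), and it was -0.29 without 78 and -2.28 without 72. Whether choroid plexus in the dissections contributed to these values was not tested.

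**Figure D3:**
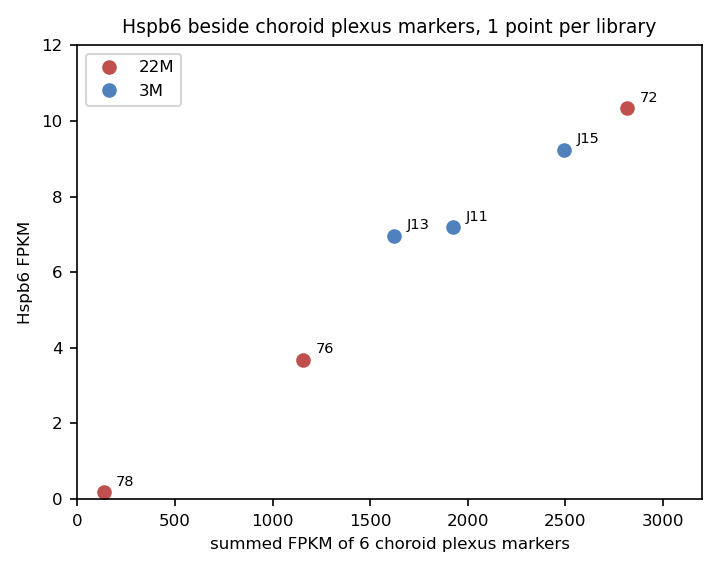
Hspb6 FPKM against the summed FPKM of 6 choroid plexus markers, 1 point per library (22M red, 3M blue). The points run from library 78 (0.188 and 135 FPKM) to library 72 (10.4 and 2817 FPKM), both of 22M, with the 3M libraries between them.

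The mitochondrial chaperonin consists of rings of HSPD1 (HSP60) with a lid of HSPE1 (HSP10), and the 2 genes share the promoter shown above. Hspe1 was at 67.0, 69.4 and 73.2 FPKM in 22M against 89.7, 94.9 and 75.6 FPKM in 3M. The 22M libraries were all below the 3M libraries, with J15 close to 78 (log2 fold change -0.30, SE 0.103, limma adjusted p = 0.126). Hspd1 was at 48.5, 55.1 and 64.3 FPKM in 22M against 63.8, 58.8 and 59.6 FPKM in 3M. Here 78 was the highest of all libraries and 72 the lowest, and the ages overlapped (log2 fold change -0.12, interval -0.40 to 0.15). Once transcript length and GC content were corrected for, both genes had a log2 fold change of -0.06.

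DNAJ proteins were the largest group, with 39 members and a median log2 fold change of -0.03. The 4 DNAJA genes, which encode the full-length type of these proteins, had log2 fold changes of -0.05 to 0.17. Dnaja1, a cytosolic partner of HSP70, was at 66.0, 64.2 and 74.8 FPKM in 22M against 59.2, 59.7 and 63.1 FPKM in 3M. All 22M libraries lay above the 3M libraries, with a log2 fold change of 0.17 (interval -0.04 to 0.37, limma adjusted p = 0.255), or 0.31 after correction for length and GC content (limma unadjusted p = 0.00948). Dnaja3, the mitochondrial form, was at 20.5, 20.9 and 22.0 FPKM in 22M against 22.8, 21.0 and 22.0 FPKM in 3M, and the ages overlapped (interval -0.24 to 0.14).

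Among the 10 DNAJB genes the lowest p values belonged to a gene that was higher and a gene that was lower in 22M. Dnajb14, which encodes a DNAJ protein of the ER membrane, was at 14.7, 15.6 and 16.3 FPKM in 22M against 9.77, 12.1 and 12.99 FPKM in 3M. The 22M libraries lay above all 3M libraries (log2 fold change 0.41, SE 0.126, limma adjusted p = 0.103), and after correction for length and GC content the log2 fold change was -0.02. Its transcript has 9477 bases. Dnajb5 was at 41.2, 45.4 and 48.0 FPKM in 22M against 55.9, 54.9 and 51.3 FPKM in 3M, again without overlap (log2 fold change -0.27, limma adjusted p = 0.116, or -0.16 with that correction). Dnajb6, which keeps glutamine-rich chains from clumping, and Dnajb9, an ER protein, had log2 fold changes of 0.01 (interval -0.24 to 0.25) and -0.0015 (interval -0.18 to 0.17).

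Of the 25 DNAJC genes, which share only the J domain, 2 were lower at the study's thresholds. Dnajc2 (chr5:21757267-21785251, minus strand), the ribosome-bound partner of Hspa14, was at 8.56, 8.60 and 7.75 FPKM in 22M against 15.2, 16.9 and 11.9 FPKM in 3M. The 22M libraries were nearly alike and lay below all 3M libraries, with a mean of 8.30 ± 0.477 FPKM in 22M against 14.6 ± 2.57 FPKM in 3M (SD, n = 3 each). The log2 fold change was -0.77 (SE 0.145, limma adjusted p = 0.0513), the lowest adjusted p of the members. It stayed lower at the study's thresholds under all 18 alternatives, with adjusted p values of 0.0295 to 0.231. Dnajc19 (chr3:34056020-34081321, minus strand), a part of the motor that pulls proteins into mitochondria together with Hspa9, was at 14.1, 11.4 and 11.9 FPKM in 22M against 22.2, 23.3 and 14.4 FPKM in 3M. J15 lay just above 72, and the other 3M libraries were well above (log2 fold change -0.63, SE 0.197, limma adjusted p = 0.109). Dnajc19 was not lower at those thresholds in 7 of the 18 alternatives, among them the correction for length and GC content (-0.46) and leaving out 76 (-0.57), J11 (-0.54) or J13 (-0.51).

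Dnajc7, which binds HSP70 and HSP90 at the same time, was at 36.1, 36.2 and 36.7 FPKM in 22M against 47.9, 60.2 and 44.0 FPKM in 3M. The 22M libraries were almost equal and below all 3M libraries (log2 fold change -0.46, SE 0.123, limma adjusted p = 0.0819). Dnajc5, which encodes the cysteine string protein of synaptic vesicles, was at 17.0, 18.3 and 17.4 FPKM in 22M against 17.0, 18.2 and 17.5 FPKM in 3M. The values of both ages lay within a small spread, and the interval of the log2 fold change was -0.19 to 0.19, but after the correction for length and GC content it was -0.28 (limma unadjusted p = 0.0137). Dnajc6, which encodes auxilin, the neuronal factor that removes clathrin from vesicles together with Hspa8, was at 57.3, 65.8 and 74.4 FPKM in 22M against 47.9, 50.9 and 53.2 FPKM in 3M (named after its values were seen). The ages did not overlap, and the log2 fold change was 0.37 (SE 0.111, limma adjusted p = 0.101), or 0.18 after the correction for length and GC content. Dnajc3 and Dnajc16 were also higher in 22M at an unadjusted p under 0.05, with log2 fold changes of 0.25 and 0.26, and Dnajc4 and Dnajc17 lower, with -0.35 and -0.34. None of these 4 passed after the correction, which put them at 0.02, 0.03, -0.03 and -0.06.

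CCT is a ring of 8 kinds of subunit that folds actin and tubulin. The 7 subunit genes summed to 286, 304 and 291 FPKM in 22M against 328, 339 and 306 FPKM in 3M, and these sums did not overlap. Their median log2 fold change was -0.19. Of the 7, 4 (Cct2, Cct3, Cct5 and Tcp1) were lower in 22M without overlap and at an unadjusted p under 0.05, where 21.1% and 16.4% of all genes were, and 3 (Cct4, Cct7 and Cct8) overlapped. After correction for length and GC content, Tcp1 alone kept a p under 0.05 (0.0116), with 0.183 for Cct2, 0.0538 for Cct3 and 0.0515 for Cct5. The log2 fold changes of Cct2 and Cct3 were -0.19 and -0.32, and -0.09 and -0.23 after it. Cct5, the epsilon subunit, was at 46.5, 54.4 and 49.9 FPKM in 22M against 61.4, 66.5 and 61.4 FPKM in 3M (log2 fold change -0.33, SE 0.0871, limma adjusted p = 0.0823). Tcp1, the alpha subunit, was at 46.8, 50.04 and 51.4 FPKM in 22M against 60.0, 61.0 and 56.5 FPKM in 3M (log2 fold change -0.26, limma adjusted p = 0.0969). In both genes the 22M libraries lay below every 3M library, and once length and GC content were corrected the log2 fold changes were -0.19 and -0.24. Cct8, the theta subunit, was at 43.5, 47.3 and 58.8 FPKM in 22M against 45.9, 60.9 and 55.3 FPKM in 3M, with an interval of -0.47 to 0.24.

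Cct7, the eta subunit, did not follow the other subunits, with 31.4, 34.3 and 12.6 FPKM in 22M against 25.1, 8.35 and 6.67 FPKM in 3M. Libraries 72, 76 and J11 were high and 78, J13 and J15 low, so the ages overlapped (log2 fold change 1.05, interval -0.30 to 2.40, limma adjusted p = 0.279). It was higher at the study's thresholds without 78 (1.501), without J11 (1.62), without both (2.06) and with array weights (1.37). The division between its transcripts moved with this. Cct7-201 was at 4.99, 5.26 and 5.54 FPKM in 22M against 9.91, 8.35 and 6.67 FPKM in 3M, whereas Cct7-203 was at 26.4, 29.0 and 7.09 FPKM in 22M, was at 15.2 FPKM in J11 and was listed at 0 in J13 and J15. Since a listed 0 can be a failed estimate, the sum of Cct7 is uncertain.

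In other members, too, the share of each transcript differed among libraries of 1 age, and single transcripts are given as descriptions only. Of the 69 members, 28 had 1 transcript in the table and 41 had 2 or more, up to 5. In 13 members a transcript was listed at 0 in some library, and 3 transcripts (Cct7-203, Cct8-202 and Hsph1-209) were at 0 in some libraries and at 5 FPKM or more in others. Hsph1-209 was at 31.6 and 34.7 FPKM in 72 and 76, and at 0 in 78 and in all 3M libraries. Hsph1-201, in turn, was at 14.98, 12.8 and 48.1 FPKM in 22M against 44.5, 46.9 and 51.7 FPKM in 3M, and the sums of the gene stayed close together. Hsp90aa1-201, the main transcript of its gene, was at 226, 7.76 and 276 FPKM in 22M against 99.9, 373 and 222 FPKM in 3M. The low value in 76 stood beside a high Hsp90aa1-208, at 102 FPKM in 76 and at most 7.33 FPKM in the other libraries. Dnajc4, which has 2 transcripts, was divided by age: Dnajc4-202 was at 2.19, 1.82 and 1.54 FPKM in 22M against 8.12, 7.12 and 5.14 FPKM in 3M, and Dnajc4-201 at 10.6, 9.12 and 8.94 FPKM in 22M against 6.89, 8.72 and 8.08 FPKM in 3M. Neither transcript overlapped between the ages, in opposite directions, and this pair was picked after its values were seen.

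**Figure D4:**
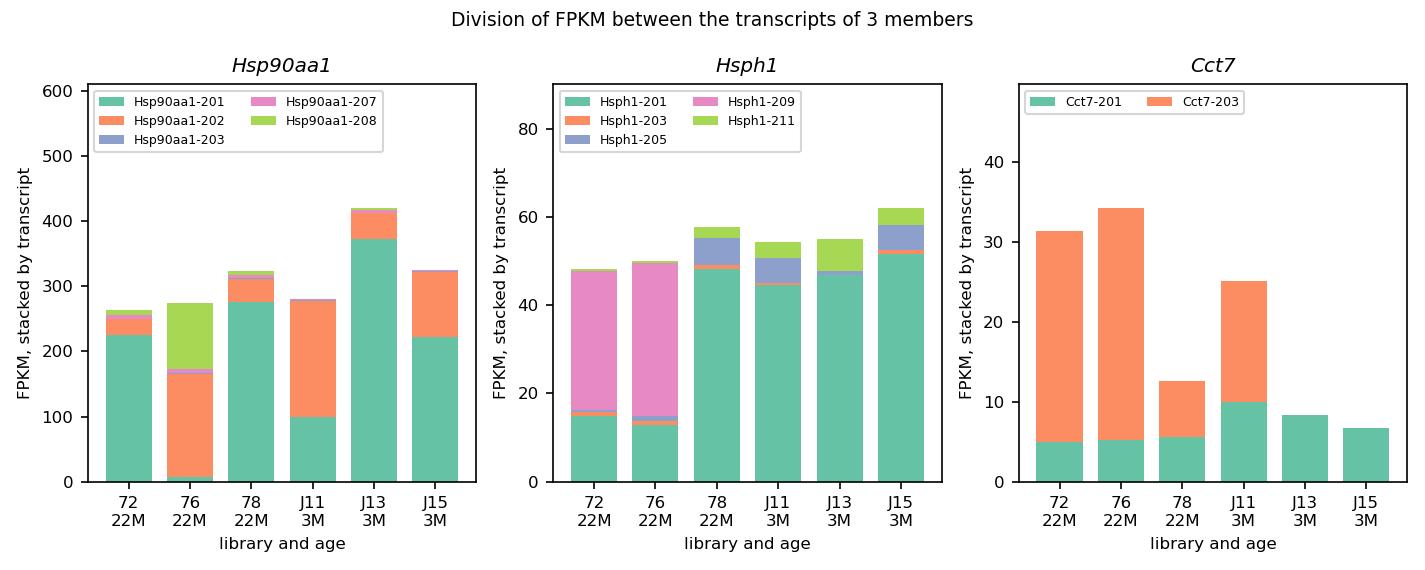
FPKM of each library stacked by transcript for Hsp90aa1, Hsph1 and Cct7, 22M libraries left of 3M libraries. The height of the Hsph1 bars stays between 48.2 and 62.1 FPKM while Hsph1-209 appears in 72 and 76 alone, and the bars of Cct7 are lowest in J13 and J15, where Cct7-203 is listed at 0.

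The libraries of the same age differed in the members together. In 22M, library 78 was the highest in 36 of 69 members (52.2%, against 37.2% of all genes) and 72 the lowest in 37 (53.6%, against 45.7%). The order 72 below 76 below 78 held in 27 members (39.1%, against 26.6% of all genes). Among them were Hsp90aa1, Hspa1a, Hspa1b, Hspa5, Hspa8, Hsph1, Dnajb1, Hspd1, Hspe1 and Cct8, and also Tcp1, Cct2 and Dnajc6. Hspb1, Dnaja1 and Dnajb6 did not have this order, and Hsp90b1 had the reverse. In 3M, J13 was the highest in 29 members (42.0%, against 29.6% of all genes), among them Hsp90aa1, Hsp90ab1, Hspa8, Hspa5 and Hspe1. The summed FPKM of all members was 2718, 2800 and 2955 FPKM in 22M against 2894, 3284 and 2966 FPKM in 3M. Only J13 lay well above the rest, and 78 lay within the range of 3M.

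**Figure D5:**
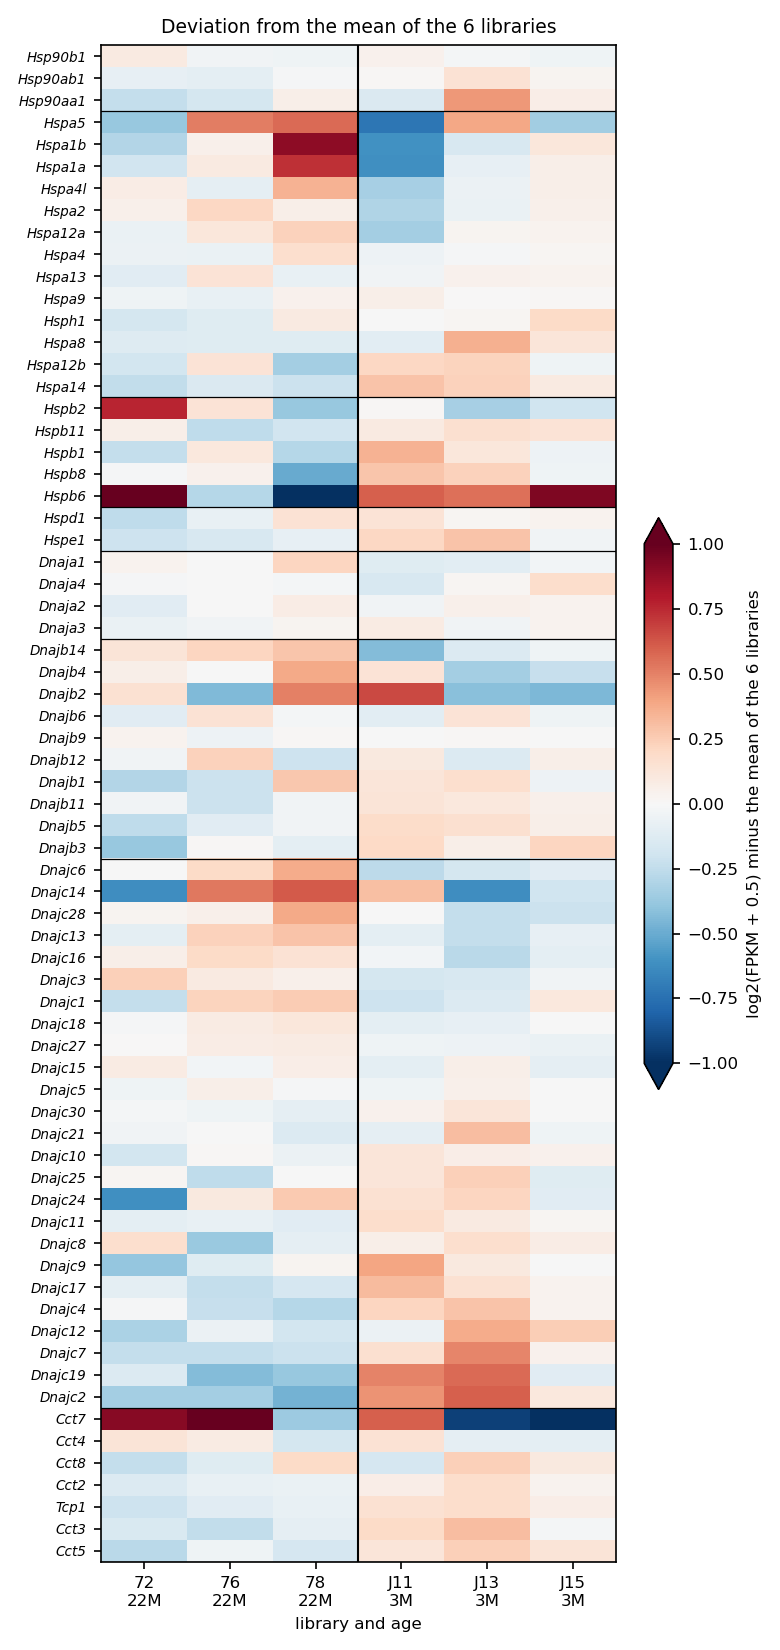
Heat map of log2(FPKM + 0.5) minus the mean of the 6 libraries for each of the 69 members (red above, blue below, colours end at -1 and 1), 22M libraries left of 3M libraries. Within each family the rows run from the highest to the lowest log2 fold change. The last rows of the DNAJC genes are therefore mostly blue in 22M and red in 3M by this order alone. Hspa1a and Hspa1b are dark red in library 78 and blue in J11, and Hspb6 is dark blue in 78.

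Differences between the ages ran with transcript length in the members as in all genes. Spearman's rho between length and log2 fold change was 0.557 across the 69 members and 0.516 across 13027 genes, which are not independent and share the same libraries. The 20 members that were lower without overlap had a median length of 1922 bases, and the 7 that were higher one of 4758 bases, against 1893 and 5070 bases for all genes that were lower and higher in this way. Of the 22 members under 2000 bases, 12 were lower and 1 was higher without overlap, and of the 15 members of at least 4000 bases, 1 was lower and 5 were higher. Over all genes, 1477 of 3740 under 2000 bases were lower (39.5%) and 120 higher, and of 3964 of at least 4000 bases 204 were lower and 1209 higher (30.5%). The correction subtracts what runs with length in each library, so it lowers rho over all genes by construction. An age difference that runs with length would be removed as well. After each library was corrected for length and GC content, rho was -0.10 in the members and 0.02 in all genes. The median log2 fold change then was -0.09 for the CCT genes, -0.08 for the HSP90 genes, -0.16 for the HSP70 and HSP110 genes and -0.04 for the small heat shock proteins, and Dnajc2 was at -0.71. RNA quality and fragment size were not analysed here.

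The partners of the members were described by 5 lists. Of 30 cochaperones and exchange factors of HSP70 and HSP90, 0 rose and 2 fell (limma adjusted p), and the median log2 fold change was -0.13. Over all genes, 0.92% rose and 1.21% fell. Bag1, which releases nucleotide from HSP70, fell to 48.5, 50.9 and 46.2 FPKM in 22M, against 75.0, 71.3 and 64.0 FPKM in 3M (log2 fold change -0.52, SE 0.0879, adjusted p = 0.0479). Fkbp8, which binds HSP90 at the mitochondrial surface, fell to 114, 119 and 105 FPKM in 22M, against 163, 172 and 149 FPKM in 3M (log2 fold change -0.52, adjusted p = 0.0479). Both were lower in all 3 libraries of 22M without overlap, and so was Stub1, the ubiquitin ligase CHIP that marks clients of HSP70, at 42.1 ± 4.05 FPKM in 22M against 56.9 ± 1.99 FPKM in 3M (adjusted p = 0.0602). After correction for length and GC content the log2 fold changes were -0.28 for Bag1, -0.24 for Fkbp8 and -0.18 for Stub1, against -0.43 for Stub1 before it, and the median of the list was -0.03. Bag1 and Fkbp8 then no longer passed (limma adjusted p = 0.134 and 0.127).

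Prefoldin hands actin and tubulin to CCT, and tubulin then passes to folding cofactors. Of the 17 genes on that list, 0 rose and 1 fell, 2 were lower at the study's thresholds, 10 were lower without overlap, and the median log2 fold change was -0.41, or -0.23 after correction for length and GC content. Over all genes, 4.22% were lower at those thresholds and 21.1% without overlap, and the genes of this list are short (median 1416 bases). Pfdn6, a prefoldin subunit, fell to 15.5, 17.0 and 16.2 FPKM in 22M, against 24.8, 24.3 and 26.8 FPKM in 3M (log2 fold change -0.62, SE 0.0849, limma adjusted p = 0.0394), and with the correction it was at -0.34 and no longer passed (adjusted p = 0.222). Tbcb, a tubulin cofactor, was at 16.5, 18.2 and 17.4 FPKM in 22M against 29.5, 31.3 and 23.1 FPKM in 3M (adjusted p = 0.0529), and Pfdn1 at 29.6 ± 0.763 FPKM in 22M against 41.2 ± 4.60 FPKM in 3M. Each of these genes lay below the 3M range in every 22M library, with J15 the nearest 3M library for Tbcb and Pfdn1. The log2 fold changes of Tbcb and Pfdn1 were -0.66 and -0.46, and with the correction -0.41 and -0.25 (limma unadjusted p = 0.00944 and 0.0215).

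Of the 13 tested genes of HSF factors and stress induction, 0 rose and 0 fell, and 1 was lower at the study's thresholds. This was Serpinh1, the collagen chaperone HSP47 of the ER, at 7.04, 3.89 and 6.05 FPKM in 22M against 10.6, 10.5 and 9.93 FPKM in 3M (log2 fold change -0.85, SE 0.203, limma adjusted p = 0.0692). After correction for length and GC content, Serpinh1 was at -0.69 (limma unadjusted p = 0.0133, adjusted p = 0.167). Of 23 genes of ER folding and the unfolded protein response, 0 rose and 0 fell, with a median of 0.03. Without overlap, 3 were higher (with 13.3% over all genes) and 2 lower (with 21.1% over all genes). The sensors Ern1 (2.01 ± 0.215 FPKM in 22M against 1.26 ± 0.119 FPKM in 3M) and Atf6 (12.1 ± 0.733 FPKM in 22M against 9.21 ± 1.37 FPKM in 3M) were higher at an unadjusted p under 0.05, and Ddit3, which encodes the stress factor CHOP, was lower (13.4 ± 0.475 FPKM in 22M against 18.6 ± 3.09 FPKM in 3M). Their log2 fold changes of 0.51, 0.38 and -0.44 were 0.21, 0.04 and -0.14 after correction for length and GC content, and none of them then had a p under 0.05. Derl1 was also lower without overlap, at -0.25 (limma unadjusted p = 0.0279). With the correction it was at -0.31 (limma unadjusted p = 0.0126, adjusted p = 0.166). Atf4, which overlapped, went from 0.12 to 0.31 with the correction (limma unadjusted p = 0.0187, adjusted p = 0.184, named after its values were seen). Of 13 tested mitochondrial chaperones and proteases, 0 rose and 0 fell. Without overlap, 6 were lower (with 21.1% over all genes) and 0 higher (with 13.3% over all genes). The median was -0.14, both before and after correction for length and GC content. Clpp, the proteolytic subunit of the mitochondrial ClpXP protease, was at 23.2, 25.3 and 22.4 FPKM in 22M against 37.4, 38.7 and 31.3 FPKM in 3M (log2 fold change -0.58, limma adjusted p = 0.0513, or -0.26 and 0.196 with the correction). Grpel1 and Trap1, the exchange factor and the HSP90 protein of mitochondria, had log2 fold changes of -0.34 and -0.25, also without overlap. With the correction these were -0.44 and -0.18.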

How the data were processed

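Stranded libraries were made from polyadenylated hippocampal RNA. The authors deposited FPKM per transcript for 25409 transcripts. The submitters' processing notes name HISAT2 and the build GRCm38 (mm10). Neither the quantifier nor its annotation release is named there or in the methods, and both count as not given in the sources used here. Columns were assigned to ages by library names in the labels. The deposited FPKM hold no counts, so no counting error could be given. FPKM were summed per gene and fitted over all genes with R 4.3.3 and limma 3.58.1, with a trend of the variance, two-sided tests and Benjamini-Hochberg adjustment, on log2(FPKM + 0.5) of genes that averaged 0.5 FPKM or more. The fit was checked on simulated data. Fold changes on this scale understate those of low genes. Lengths and coordinates came from GENCODE vM21 (GRCm38), where 94.8% of transcript identifiers matched with version and 99.7% without. Lengths of genes are means weighted by FPKM, and the correction used natural splines of length and GC content with 4 degrees of freedom each. Named members were those past the adjusted p or the study's thresholds, fixed anchors such as Hsp90aa1, Hspa8, Hspd1 and Tcp1, and the 2 members of lowest p in each family. From each list of related genes, up to 4 of lowest p were named. Other members were named after their values were seen. Members, lists and anchors were chosen with earlier results of these data known. As alternatives, pseudocounts of 0.1 and 1, no filter and a filter at 1 FPKM, scaling by median of ratios or by quantiles, no variance trend, variances taken gene by gene, array weights, the highest transcript of each gene, the correction for length and GC content, and leaving out each library or J11 and 78 together were tried.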

Additional observations from a re-analysis of the deposited data

How the results depend on the processing

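Of 1239 fold changes of members under the 18 alternatives, 78 had another sign than in the fit reported, and 0 of these belonged to a member past a threshold. The count of members higher at the study's thresholds, 0 as reported, was 1 with array weights (Cct7), 1 after correction for length and GC content (Hspb2, log2 fold change 0.69), 1 without J11 and 78 together (Cct7), and 0 to 1 when single libraries were left out. The count of lower members, 2 as reported, was 1 after median-of-ratios scaling, with each gene's own variance, after the correction for length and GC content and without J11 and 78 together (Dnajc2 each time), and 1 to 3 when single libraries were left out. Members that fell numbered 0 as reported, 1 with a filter at 1 FPKM (Dnajc2, limma adjusted p = 0.0489), 3 with array weights (Dnajc2, Dnajc7 and Hspa14, 4.35%, against 5.67% of all genes) and 0 to 2 without single libraries, where 2 fell without J15 (Dnajc2 and Dnajc19, 2.9%, against 2.8% of all genes). Members that rose numbered 0 throughout. Single members past the study's thresholds under an alternative alone were Dnajc14 without 72 (0.75) and Hspb6 without 72 (-2.28), beside Cct7 and Hspb2. The median of the HSP90 genes ranged from -0.17 to 0.02, that of the HSP70 and HSP110 genes from -0.16 to 0.11 and that of the DNAJ genes from -0.09 to 0.02, and each changed sign under at least 1 alternative, while the CCT median stayed below 0 (-0.28 to -0.05). The share of higher genes among all genes past the study's thresholds was 49.2% as reported, 58.3% under quantile normalization and 60.0% under median-of-ratios scaling. No paired analysis was possible because the library names carry no replicate numbers shared between the ages. With 3 libraries per age and unknown depth, differences of about the size of the intervals given were not detectable, and a p above the threshold does not show that values are alike.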
